A study of Meleagris gallopavo with 12 samples.

Results

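Gene expression in the premammillary nucleus was compared between turkey hens given 10 long days and hens kept on short days, all of them photosensitive, that is, still able to respond to light with reproduction. The long-day photosensitive group (LDPS, 16 h light and 8 h dark for 10 days) and the short-day photosensitive group (SDPS, 6 h light and 18 h dark) had 4 samples each, chosen by their labels. These 8 samples came from a series of 12, all of adult females, in which the other 4 were long-day photorefractory hens (LDPR), which had passed a reproductive cycle and moult under long days of unstated length. Tissue of 6 hens was pooled for each sample, so the spread between hens is hidden and an SD below is a spread between pools. A pair of pools of different groups shared each of the 6 chicken oligonucleotide arrays, 1 labelled with Alexa Fluor 555 and 1 with Alexa Fluor 647.

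In birds, light reaches reproduction through photoreceptors deep in the brain, and a lengthening day ends in the release of gonadotropin-releasing hormone and then of gonadotropins from the pituitary. The premammillary nucleus lies at the back of the hypothalamus, and in the turkey its neurons are known to make both dopamine and melatonin and to be linked to the reading of day length. Galanin and gonadotropin-inhibitory hormone are hypothalamic peptides tied to feeding, and the latter is also tied to the restraint of reproduction. Oestrogen receptors carry the signal of the ovary back to the brain.

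LDPS and SDPS pool 1 shared an array, as did LDPS and SDPS pool 2, with the dyes exchanged between those arrays. Pools 3 and 4 of both groups were hybridised against LDPR pools, so their difference was taken through that group, and the direct arrays and this path share no pool. Over the 8 pools, median spot amplitude lay between 110.6 and 240.2 and the signal-to-background ratio between 5.69 and 12.92. Between 91.6% and 96.6% of probes were brighter than the 95th percentile of empty spots, against 79.3% in LDPR pool 2, which shared its array with SDPS pool 4. A level below is a normalised log2 intensity, which also depends on how bright the spot was on its array. A log2 ratio within an array does not, so the group difference and its standard error (SE) come from the ratios, as LDPS minus SDPS, and a ratio from a single direct array still holds any dye effect of its probe.

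Among genes with an unadjusted p under 0.01 and all estimates on the same side of 0, galanin (GAL), oestrogen receptor beta (ESR2) and the gonadotropin-inhibitory hormone precursor (NPVF) had the lowest values in LDPS, and the haemoglobin genes HBG2 and HBA1 the highest. Without these conditions, the fitted values of the 5203 genes with a symbol ran wider, from -1.28 to 1.12. With limma over all arrays, 0 of 18012 probes passed an adjusted p of 0.05 (0.0%). At an unadjusted p under 0.05, 544 probes were higher in LDPS (3.02%) and 236 were lower (1.31%), together 4.33% of those tested. This balance was not stable, with 663 higher and 630 lower through LDPR alone, and 965 higher and 709 lower without pool 2 of both groups. Over the alternatives in processing, the number of probes past the adjusted threshold ran from 0 to 5. Every value below is therefore given as a measured difference. In pooled tissue, fewer cells of a type and less RNA per cell cannot be told apart.

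The level of GAL was 10.19, 10.56, 10.03 and 10.13 in SDPS pools 1 to 4 and 9.37, 9.43, 8.52 and 9.27 in LDPS pools 1 to 4. All LDPS pools lay below all SDPS pools, with LDPS pool 3 the lowest. The mean was 10.23 ± 0.23 in SDPS and 9.15 ± 0.42 in LDPS (SD, n = 4 each). The log2 ratio was -0.82 and -1.13 on the direct arrays and -1.11 through LDPR. The fit gave -1.02 (SE 0.11, 95% interval -1.27 to -0.77), which is 0.493 times the SDPS level, with an adjusted p of 0.0832. GAL passed with the channels fitted separately and same-numbered pools treated as pairs, at -1.06 with a limma adjusted p of 0.0030. The labels do not state this pairing. GAL also passed in 5 other alternatives, among them separate channels without pairs, with a limma adjusted p of 0.000982. Without LDPR pool 2 and SDPS pool 4 the value was -1.06, with an adjusted p of 0.109.

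ESR2, a nuclear receptor for oestradiol, had levels of 7.40, 6.76, 7.23 and 7.41 in SDPS and 6.37, 5.97, 5.88 and 6.32 in LDPS. The groups did not overlap, and SDPS pool 2 was the nearest of its group to LDPS. The direct arrays gave -1.04 and -0.79 and the LDPR path -1.07, and the fit -0.97 (SE 0.16, adjusted p = 0.519). With an offset of 50 added to every intensity the value was -0.64. The adjusted p was 0.0144 when the channels were fitted separately and 0.111 when the numbered pools were also paired. The receptor alpha gene, ESR1, was at -0.18 (SE 0.10), with all 3 estimates on the lower side (-0.07, -0.15 and -0.33).

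NPVF encodes the precursor of gonadotropin-inhibitory hormone and related peptides. Its levels were 10.92, 10.80, 12.13 and 10.42 in SDPS and 10.11, 10.39, 9.53 and 10.17 in LDPS. The groups lay apart by little, since LDPS pool 2 was just below SDPS pool 4, and SDPS pool 3 was far above the others of its group. Direct ratios were -0.81 and -0.42 and the path through LDPR -1.01, with a fitted value of -0.74 (SE 0.23, adjusted p = 1.00). Leaving out SDPS pool 3 with its array partner brought the value to -0.50. Leaving out LDPS pool 1 and SDPS pool 1 gave -0.95.

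The lack of overlap seen for GAL, ESR2 and NPVF was found in the lower direction for 51 of the 16748 probes present on all arrays (0.304%), and in the higher direction for 114 (0.681%). Among genes named here, FSHB, HBG2, CNGA3 and PER2 were those with all LDPS pools above all SDPS pools.

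**Figure D1:**
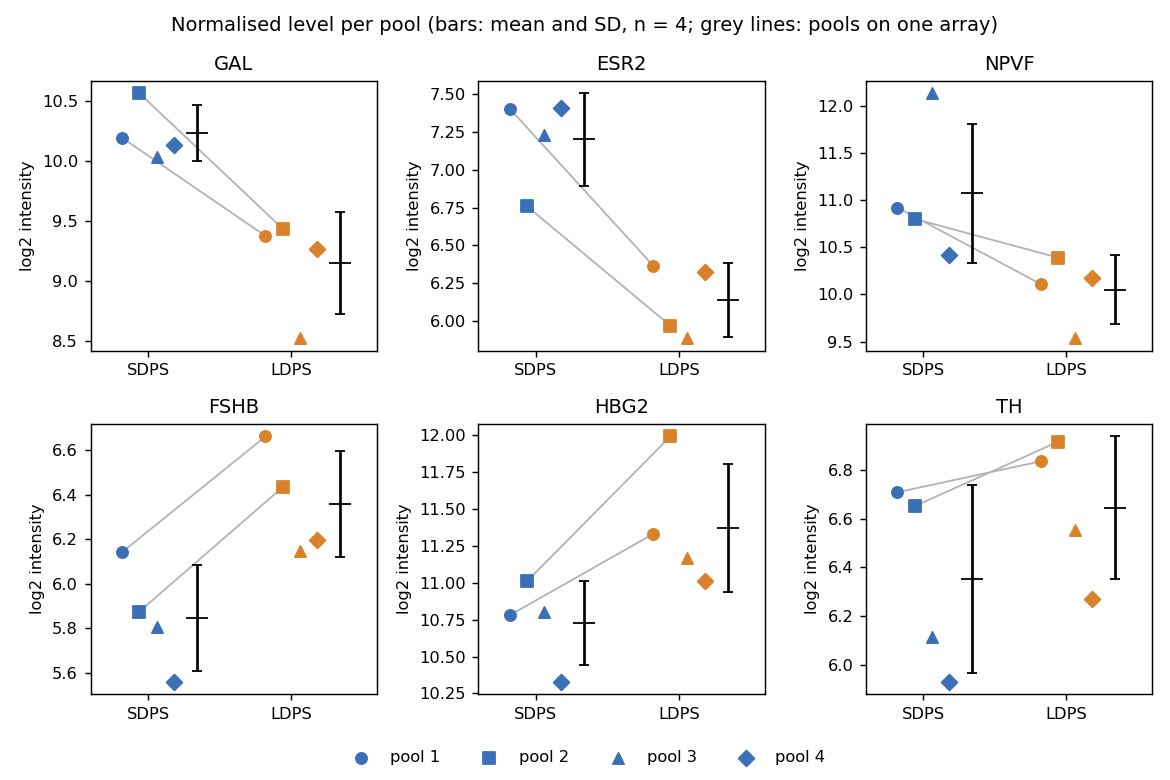
Normalised log2 intensity (y axis) of GAL, ESR2, NPVF, FSHB, HBG2 and TH in each SDPS (blue) and LDPS (orange) pool, with the symbol giving the pool number, black bars the mean and SD over 4 pools, and grey lines joining pools on the same array. All LDPS pools are below all SDPS pools for GAL, ESR2 and NPVF and above them for FSHB and HBG2, while the groups overlap for TH.

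The direct arrays and the path through LDPR give separate estimates of the same difference from separate pools, which can be set side by side for each probe. Over 16748 probes they had a Pearson correlation of 0.04 and a Spearman correlation of 0.03, and 50.8% had the same sign, where probes are not independent replicates. The 2 direct arrays, which carried the dyes the other way round, correlated at -0.22 with each other. On both direct arrays, 12 probes were lower in LDPS by at least 0.5. The LDPR path was negative in 8 of them and lower by at least 0.5 in 4. The 4 were GAL, ESR2, a probe described as similar to stomatin-like 3 (RIGG19500) and a probe described as similar to neuronal pentraxin II (RIGG03982). On the higher side 13 probes were at 0.5 or more on both direct arrays. The path was positive in 8 of these and at 0.5 or more in 2, HBG2 and the unnamed probe RIGG04755. The SD of the path over all probes was 0.23, and the share of all probes with a path value beyond 0.5 was not counted. At a threshold of 0.8, GAL alone met the condition, of 3 probes that were lower on both direct arrays.

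**Figure D2:**
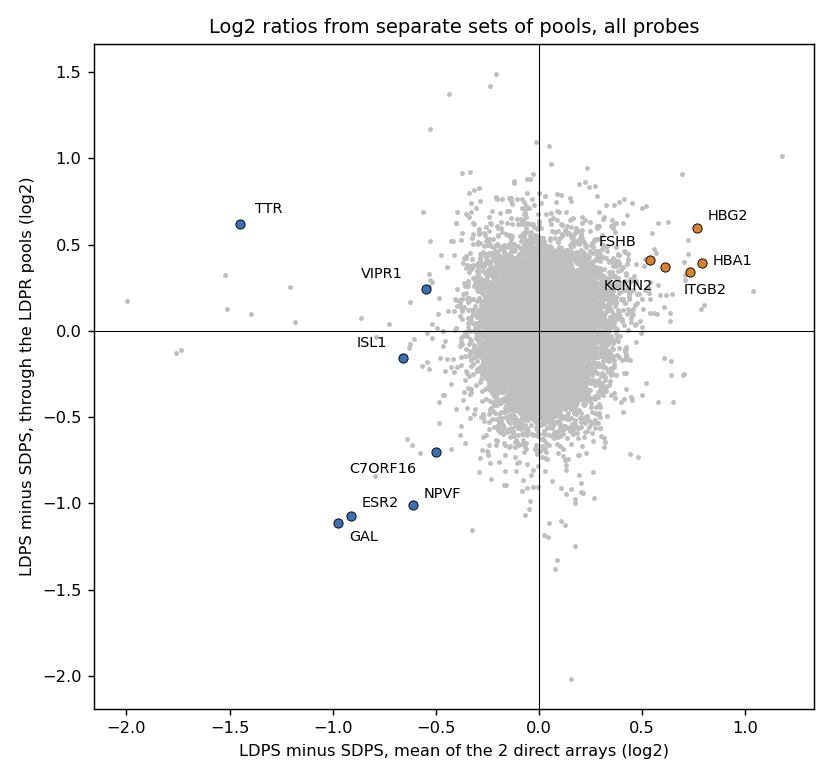
Log2 ratio of LDPS to SDPS for each probe as the mean of the 2 direct arrays (x axis) and through the LDPR pools (y axis), with grey points for all 16748 probes and coloured points for genes named in the text. GAL, ESR2 and NPVF lie at the lower left on both axes, HBG2 at the upper right, and TTR is low on the direct arrays and high on the path.

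RIGG19500 had levels of 7.09, 6.51, 6.37 and 6.17 in SDPS and 6.03, 5.99, 5.17 and 5.48 in LDPS. All LDPS pools were below all SDPS pools. Its fitted value was -0.81 (SE 0.13, adjusted p = 0.519), from -1.07, -0.52 and -0.84. RIGG03982, whose named relative is a secreted protein of excitatory synapses, had levels of 9.43, 9.20, 8.93 and 8.62 in SDPS and 8.81, 8.66, 8.29 and 8.56 in LDPS. SDPS pool 4 was inside the LDPS range, so these groups overlapped, and the fitted value was -0.62 (SE 0.12, adjusted p = 0.895).

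The receptors through which galanin acts were measured by probes named from their descriptions. The probe for galanin receptor 1 (RIGG11655) was at -0.22 (SE 0.12), with -0.32 and -0.43 on the direct arrays and 0.07 on the path. The receptor 2 probe (RIGG10890) was at -0.03 (SE 0.14), with -0.04 and -0.39 directly and 0.33 on the path. The path therefore had the opposite sign for both receptors.

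Of 21 measured neuropeptide and peptide hormone genes, 15 had negative values and 6 positive ones. The median was -0.08, against -0.02 over the 5203 genes with a symbol, of which 57.0% were negative, and it ran from -0.14 to -0.05 over the alternatives. At an unadjusted p under 0.05, 3 were lower (GAL, NPVF and GCG, the glucagon precursor, at -0.26) and 1 was higher. The latter was IAPP, the amylin precursor, at 0.40 (SE 0.10). At that threshold, 142 of the 5203 genes with a symbol were higher and 78 lower, the background for the lists below as well. IAPP levels were 9.71, 9.49, 9.70 and 9.34 in SDPS and 9.83, 10.19, 9.93 and 9.46 in LDPS, with LDPS pool 4 inside the SDPS range. Among peptides of other hypothalamic systems, vasotocin (AVP) was at -0.08 (SE 0.13) and thyrotropin-releasing hormone (TRH) at -0.04 (SE 0.13). The tachykinin precursor TAC1 was at -0.13 (SE 0.10), the enkephalin precursor PENK at -0.17 and PTHLH at -0.24. Urotensin 2 (UTS2) was at -0.21, with 0.53 and -0.18 on the direct arrays and -0.98 on the path. The opiomelanocortin precursor POMC was at -0.14 (SE 0.11), and vasoactive intestinal peptide (VIP), which drives prolactin release in birds, at 0.15 (SE 0.15).

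Among 35 receptors for neuropeptides and hormones the split was even, with 17 positive and 18 negative values and a median of -0.02 that was positive in 3 of 18 alternatives. Only ADCYAP1R1 and PRLR had an unadjusted p under 0.05, both lower, beside 78 lower of the 5203 genes with a symbol. ADCYAP1R1, the receptor for the peptide PACAP, was at -0.33 (SE 0.10), with -0.45, -0.20 and -0.34 on the 3 estimates. The prolactin receptor PRLR was at -0.24 (SE 0.10), with levels of 8.34, 8.58, 8.24 and 8.18 in SDPS and 8.21, 8.30, 7.85 and 8.09 in LDPS. Its groups overlapped at LDPS pools 1 and 2. VIPR1, a receptor for VIP, was at -0.56 and -0.54 on the direct arrays but 0.24 on the path, and its fitted value of -0.28 had an SE of 0.19. Of 6 genes of prohormone processing, CPE, a carboxypeptidase that trims peptide precursors, was the only one at an unadjusted p under 0.05, at -0.24 (SE 0.10).

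Dopamine synthesis begins with tyrosine hydroxylase (TH). TH levels were 6.71, 6.65, 6.12 and 5.93 in SDPS and 6.84, 6.92, 6.55 and 6.27 in LDPS. The LDPS pool was the higher at each pool number, but only pools 1 and 2 shared an array, and the labels pair no pools. The groups overlapped, since LDPS pools 3 and 4 lay within the SDPS range. All estimates were positive (0.13, 0.26 and 0.30), and the fitted value was 0.23 (SE 0.10, adjusted p = 1.00). Of 12 measured genes of dopamine synthesis, transport and breakdown, 11 had positive values with a median of 0.11, beside 2239 positive of the 5203 genes with a symbol. TH was the only one of the 12 at an unadjusted p under 0.05. The vesicular monoamine transporter SLC18A2 was at 0.16, with estimates of -0.22, 0.20 and 0.52. GCH1, the first enzyme in making the cofactor of TH, was at 0.14 (0.40, -0.04 and 0.04). The breakdown enzyme MAOA was at 0.12 (-0.18, 0.63 and -0.10). Only TH and the transcription factor gene LMX1B were positive on all estimates. The members were measured in the same pools, so they are not independent observations. The cofactor recycling enzyme QDPR was the only negative member, at -0.13. The list median was 0.03 and 0.16 on the direct arrays and 0.04 on the path, and it ran from 0.04 to 0.15 over the alternatives.

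Melatonin synthesis was represented by ASMT, its last enzyme, at -0.11 (SE 0.13). ASMT levels ran from 5.67 to 6.32 in SDPS and from 5.88 to 6.04 in LDPS, so the LDPS range lay inside that of SDPS. The probe for the melatonin receptor Mel-1c (RIGG14884) was at -0.01 (SE 0.15), with direct values of -0.08 and -0.31 and a path value of 0.36. DDC, TPH1, TPH2, AANAT, MTNR1A and MTNR1B were not analysed here.

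Melanopsin (OPN4), a photopigment, had levels from 11.65 to 11.98 in SDPS and from 11.72 to 12.04 in LDPS. The groups overlapped almost fully, and the value was 0.15 (SE 0.10). Of 14 opsin and phototransduction genes, 8 were positive and 4 of these had an unadjusted p under 0.05, beside a median of 0.05 (0.00 to 0.09 over the alternatives). Among them were the cone phosphodiesterase subunit PDE6H (0.34), the retinoid isomerase RPE65 (0.32) and the cone channel subunit CNGA3 (0.27). Over the 5203 genes with a symbol, 2239 were positive and 142 were higher at that threshold. RPE65 levels were 8.56, 7.46, 8.00 and 8.05 in SDPS and 8.64, 7.80, 8.09 and 8.27 in LDPS. The groups overlapped, with LDPS pool 2 below 3 of the SDPS pools, and the direct ratios of 0.08 and 0.34 were smaller than the path at 0.56. CNGA3 levels were 7.82, 7.91, 8.09 and 7.93 in SDPS and 8.28, 8.12, 8.25 and 8.38 in LDPS, without overlap, but the value of 0.27 was 0.15 without pool 1 of both groups. RPE65 was at 0.50 without pool 2 of both groups.

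Clock genes showed no member at an unadjusted p under 0.05 among 12 measured. The repressor PER2 had SDPS levels of 6.11, 6.26, 6.57 and 6.56 and LDPS levels of 6.64, 6.60, 6.65 and 6.58. All LDPS pools were above all SDPS pools, by little for pools 3 and 4. Its ratios were 0.53 and 0.33 on the direct arrays and -0.17 on the path, and the fitted value was 0.23 (SE 0.14), or 0.12 without pool 1 and 0.085 without pool 2 of both groups. CRY1, also a repressor, was at 0.19 (SE 0.11), and the activator ARNTL at -0.21 (SE 0.11). CLOCK (0.05) and NR1D2 (-0.01) stood near 0. Nocturnin (CCRN4L), a deadenylase with a daily rhythm, was at 0.43 (SE 0.11), with levels from 10.90 to 11.58 in SDPS and from 11.17 to 11.73 in LDPS. The labels used here do not state the time of day at which tissue was taken.

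In the thyroid arm of the photoperiodic response, DIO2 activates thyroid hormone and is the gene best known to respond to long days in the avian mediobasal hypothalamus. DIO2 levels were 8.04, 7.79, 8.26 and 7.95 in SDPS and 7.78, 8.20, 7.38 and 7.67 in LDPS. The groups overlapped, and the estimates of -0.26, 0.41 and -0.35 disagreed in sign, with a fitted value of -0.06 (SE 0.12). Of 14 genes of this list 9 were positive, with a median of 0.04 that was negative in 4 of 18 alternatives, and 0 reached an unadjusted p of 0.05, among them the thyrotropin receptor TSHR at 0.15 and the thyroid hormone receptors THRA at 0.10 and THRB at 0.02. TSHB, CGA and DIO3 were not analysed here.

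Transthyretin (TTR), a carrier of thyroid hormone made in the choroid plexus, had the largest SD over pools of the genes named here, at 1.24 in SDPS and 0.92 in LDPS. Its levels were 9.13, 8.39, 6.80 and 6.57 in SDPS and 7.37, 7.26, 5.38 and 6.61 in LDPS. Pools 1 and 2 of SDPS were far above the rest. The direct ratios were -1.76 and -1.14 and the path 0.62, so that the fitted value of -0.76 had an SE of 0.60. Leaving out pool 1 of both groups gave 0.50. The other choroid plexus and ependyma markers, FOLR1, IGFBP2 and TEKT1, lay between -0.03 and -0.02.

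The follicle-stimulating hormone beta chain (FSHB), a pituitary hormone subunit, had levels of 6.14, 5.88, 5.80 and 5.56 in SDPS and 6.66, 6.43, 6.14 and 6.20 in LDPS. All LDPS pools were above all SDPS pools, though LDPS pool 3 and SDPS pool 1 differed by less than 0.01. The estimates were 0.52, 0.56 and 0.41 and the fitted value 0.50 (SE 0.12, adjusted p = 1.00). Leaving out 1 array at a time the fitted value ran from 0.41 to 0.59, and over the other alternatives from 0.30 to 0.54. Other pituitary markers did not share this value: prolactin (PRL) was at -0.01 (SE 0.19), growth hormone (GH1) at -0.01 and POMC at -0.14. The summed level of the 7 pituitary markers ran from 8.43 to 8.57 in SDPS and from 8.43 to 8.68 in LDPS as a mean per gene, and its part in the FSHB value was not tested. Of 14 genes of gonadotropins, inhibins and activins, 7 were positive and 7 negative. INHBA, the activin beta A chain, was at -0.27 (SE 0.10).

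Of 15 genes of steroid reception and synthesis 8 were negative, with a median of -0.05 that turned positive (0.01) without LDPR pool 2 and SDPS pool 4, and ESR2 was the only one at an unadjusted p under 0.05. Aromatase (CYP19A1), which makes oestradiol, was at -0.07, and STAR, which delivers cholesterol for steroid synthesis, at 0.04.

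Among hypothalamic transcription factors, ISL1, which marks several peptide and catecholamine cell types, was at -0.49 (SE 0.14). ISL1 levels were 7.04, 7.41, 6.94 and 6.33 in SDPS and 6.44, 6.70, 6.60 and 6.56 in LDPS. SDPS pool 4 was the lowest of all 8, and the path was nearer 0 (-0.16) than the direct arrays (-0.60 and -0.71). NKX2-2, a patterning factor also used by oligodendrocyte precursors, was at 0.43 (SE 0.13), and PAX6, a patterning factor of neurons, at 0.36 (SE 0.13). Without pool 2 of both groups ISL1 was at -0.32 and PAX6 at 0.23. Of the 25 measured members 16 were negative, with a median of -0.04 that was positive in 2 of 18 alternatives.

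Synapse and channel genes had few members at an unadjusted p under 0.05. RAB3B, a small GTPase of synaptic vesicles, was at -0.43 (SE 0.12), the lowest of 9 vesicle release genes, with a list median of -0.05 that turned positive (0.04) without pool 1 of both groups. RAB3B levels were 9.39, 9.24, 8.95 and 8.51 in SDPS and 8.66, 8.91, 8.39 and 7.60 in LDPS. The potassium channel gene KCNN2 was at 0.53 (SE 0.15), but the first direct array gave 1.15 and the second 0.08, and SDPS pool 1 at 7.27 lay far below the other SDPS pools (8.86 to 9.08). Leaving out the first direct array gave 0.28. Of 29 channel genes 20 were negative, and KCNN2 was the only one at an unadjusted p under 0.05.

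Immediate early genes, which follow neuronal activity, had 4 positive and 5 negative values, and a median of -0.05 that was positive in 7 of 18 alternatives. EGR1 levels were 8.78, 8.75, 8.54 and 8.78 in SDPS and 8.41, 8.77, 8.26 and 7.97 in LDPS. LDPS pool 2 stood at the SDPS level, and the estimates were -0.37, 0.02 and -0.60, with a fitted value of -0.32 (SE 0.12). BTG2 was at -0.30 (SE 0.13), fitted without LDPS pool 3, where its spot was treated as missing, and ran from -0.46 to -0.20 leaving out 1 array at a time. FOS was not analysed here.

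Markers of glia were on both sides. Of 12 astrocyte and tanycyte markers 9 were negative and 3 positive, the highest at 0.23, with a median of -0.12. At an unadjusted p under 0.05, 4 were lower and 0 higher. The 4 were the glutamate transporter SLC1A3 (-0.34), vimentin (VIM, -0.29), the water channel AQP4 (-0.27) and the gap junction gene GJA1 (-0.26). Over the 5203 genes with a symbol, 57.0% were negative and 78 were lower at that threshold. SLC1A3 levels were 9.95, 9.82, 9.54 and 9.54 in SDPS and 9.58, 9.52, 8.76 and 9.45 in LDPS, with LDPS pool 3 the lowest by far. The list's median was -0.11 and 0.04 on the direct arrays and -0.36 on the path, and it stayed negative over the alternatives (-0.36 to -0.07). Its mean level ran from 9.93 to 10.18 in SDPS and from 9.73 to 10.17 in LDPS.

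All 10 measured myelin and oligodendrocyte markers had positive values, from 0.00 to 0.33, beside 2239 of the 5203 genes with a symbol. These markers were measured in the same pools, so they are not independent observations. The galactolipid enzyme UGT8 was at 0.33 (SE 0.10) and the myelin protein PMP2 at 0.31 (SE 0.10), and the median was 0.09, with 0.03 to 0.14 over the alternatives. The mean level of the list, from 8.69 to 9.08 in SDPS and from 8.79 to 9.20 in LDPS, overlapped between groups. The LDPS pool was the higher at each pool number, though only pools 1 and 2 shared an array. Neuron markers had a median of -0.02, positive in 11 of 18 alternatives, and mean levels from 10.7 to 10.8 in SDPS and from 10.65 to 10.92 in LDPS. The part of cell makeup in the values of GAL, ESR2 and NPVF was not tested.

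Haemoglobin genes mark red blood cells. HBG2 levels were 10.78, 11.01, 10.80 and 10.33 in SDPS and 11.33, 11.99, 11.17 and 11.01 in LDPS, without overlap, though LDPS pool 4 was close to SDPS pool 2. Its fitted value was 0.71 (SE 0.13, adjusted p = 0.854), from 0.54, 0.99 and 0.60. HBA1 was at 0.66 (SE 0.15), with LDPS pool 3 at 11.81 below all SDPS pools (12.04 to 12.25) and LDPS pool 2 highest at 13.15. HBZ was at 0.23 (SE 0.10). Globin chains are alike in sequence, so a probe may take up RNA of another chain. Over the 3 genes the mean level ran from 10.11 to 10.29 in SDPS and from 10.30 to 10.98 in LDPS. Without LDPS pool 2 and SDPS pool 2 the list median was 0.37, against 0.66 with them.

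Immune genes, ITGB2, CD80 and FYB, were among the highest 12 with an unadjusted p under 0.01 and all estimates on the same side of 0. The leukocyte integrin chain ITGB2 was at 0.60 (SE 0.16), CD80, a ligand of antigen-presenting cells, at 0.48 (SE 0.11), and the leukocyte adaptor FYB at 0.44 (SE 0.12). The leukocyte actin bundler LCP1 was at 0.25 (SE 0.11). ITGB2 levels were 7.79, 7.54, 7.64 and 8.16 in SDPS and 8.28, 8.52, 7.79 and 8.43 in LDPS, with LDPS pool 3 inside the SDPS range. Without pool 2 of both groups ITGB2 was at 0.27 and LCP1 at 0.12. Of 13 microglia and immune markers 7 were positive, with a median of 0.01 that was negative in 10 of 18 alternatives, and the pan-leukocyte gene PTPRC was at -0.08. The mean level of these markers ran from 7.53 to 7.77 in SDPS and from 7.63 to 7.81 in LDPS. The haemoglobin level was higher in LDPS, as given above, and its part in the immune values was not tested.

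The remaining extremes were spread over functions. Counting probes with an unadjusted p under 0.01 whose 3 estimates lay on the same side of 0, 104 probes were higher in LDPS (0.615%) and 34 lower (0.201%). On the lower side, G-substrate (C7ORF16), a phosphatase inhibitor of neurons, was at -0.57 (SE 0.11) but at only -0.14 on the first direct array. The prostaglandin-degrading enzyme HPGD was at -0.46, the membrane protein LRIG3 at -0.44, reelin (RELN), an extracellular guide of neurons, at -0.42, the glutathione transferase GSTA1 at -0.41, the mediator subunit CRSP3 at -0.40 and the protein kinase A inhibitor PKIA at -0.35 (-0.22 without pool 1 of both groups). Levels of the groups overlapped for each of these lower genes. On the first direct array HPGD was at only -0.14 and RELN at -0.16, and on the second CRSP3 was at -0.08. GSTA1 had a higher mean level in LDPS (11.10) than in SDPS (10.83), with LDPS pool 4 at 12.03, while its ratios were -0.44, -0.11 and -0.69. On the higher side, the sphingomyelinase SMPD4 was at 0.53, the coat protein SEC31B at 0.48 (0.22 without pool 2 of both groups) and the sulphate transporter SLC13A4 at 0.44. SMPD4 levels were 7.40, 6.86, 7.46 and 7.42 in SDPS and 7.72, 7.66, 7.60 and 7.28 in LDPS, so LDPS pool 4 lay below 3 of the SDPS pools.

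**Figure D3:**
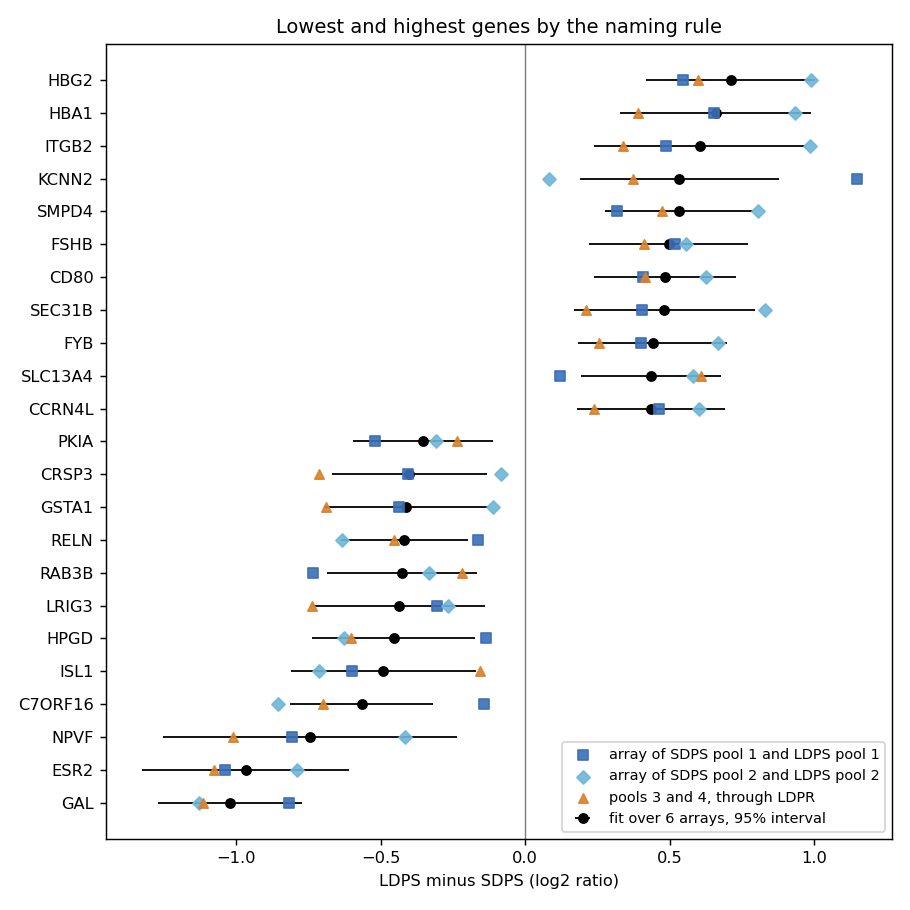
Log2 ratio of LDPS to SDPS (x axis) for genes of the 12 lowest and 12 highest with an unadjusted p under 0.01 and all 3 estimates on the same side of 0. Black points and lines give the fit and its 95% interval, squares and diamonds the direct arrays and triangles the path through LDPR. For GAL the 3 estimates lie between -1.13 and -0.82, whereas for KCNN2 they run from 0.08 to 1.15.

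Of probes with no symbol, 2 high and 2 low ones were named by the same conditions. RIGG19500 (above) and RIGG17038, known by a cDNA clone only, were the lowest, the latter at -0.64 (SE 0.14) with -0.26 and -1.02 on the direct arrays. RIGG02932, also a clone, was the highest at 0.77 (SE 0.22), with 1.61 and 0.47 on the direct arrays and 0.23 on the path, and it was at 0.36 without pool 1 of both groups. RIGG13952, described as similar to a MYC promoter-binding protein, was at 0.66 (SE 0.15), and at 0.36 without pool 2 of both groups.

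Housekeeping groups had values within narrow limits. Of 43 cytosolic ribosomal protein genes 39 were negative, with a median of -0.11 and 0 at an unadjusted p under 0.05. The medians of the direct arrays were -0.17 and 0.06, and that of the path -0.16. With arrays centred on the median in place of loess the list median was -0.06, and over all alternatives it ran from -0.22 to -0.06. Of 37 mitochondrial ribosomal genes 28 were negative (median -0.04), and of 25 proteasome genes 20 (median -0.05). Among all 5203 genes with a symbol, 57.0% were negative and the median was -0.02. Members of a list were measured in the same pools, so they are not independent observations. Respiratory chain and ATP synthase genes had 18 positive values of 30 and a median of 0.02 that was negative in 5 of 18 alternatives. Cytosolic heat shock genes had 17 positive values of 25 and a median of 0.03, which was -0.06 through LDPR alone.

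**Figure D4:**
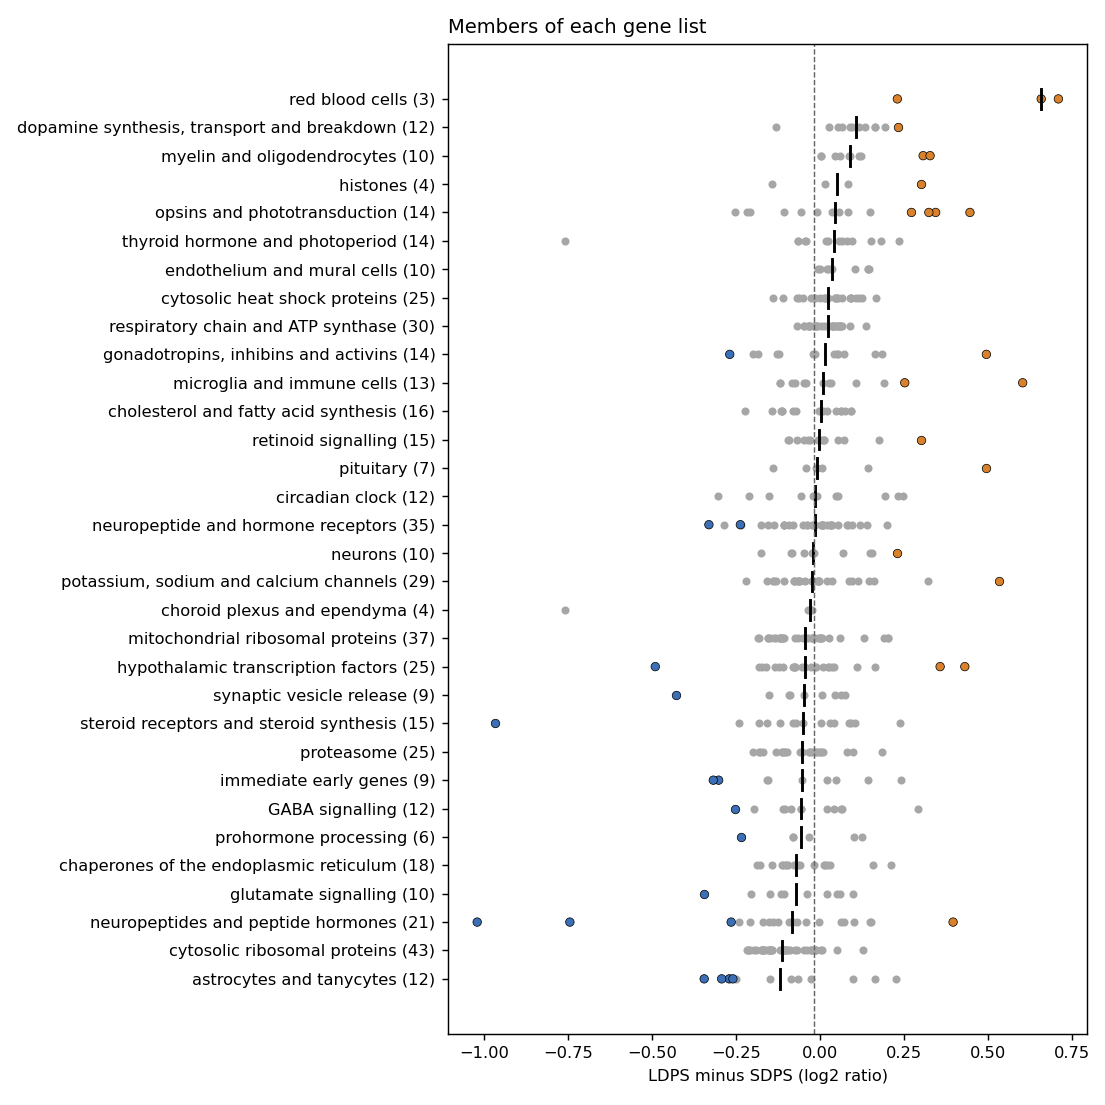
Log2 ratio of LDPS to SDPS (x axis) for the members of each gene list (y axis, number measured in brackets), with coloured points for an unadjusted p under 0.05, black bars for list medians and a dashed line for the median of all genes with a symbol at -0.02. Most medians lie near that line, the red blood cell list stands apart at 0.66, and GAL and ESR2 are the lowest points near -1.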

How the data were processed

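Total RNA of 12 pools was reverse transcribed and labelled indirectly, per the labels' protocols. Per the file headers, the authors scanned at 532 and 635 nm, quantified spots in BlueFuse for Microarrays 3.6, build 7145, and deposited 1 intensity (amplitude) per spot and channel with no background column. The deposited confidence score of each spot was used as a filter, and spots under 0.1 were treated as missing. The authors' deposited table of log2 values, normalised in a way that no source used here states, served as an alternative. Files of both samples on an array were identical, so each of the 6 arrays was read once.

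Log2 ratios of the 20460 chicken probes were normalised within arrays by loess (span 0.3, 4 iterations), and 18012 probes present on at least 5 arrays entered a limma 3.58.1 model (R 4.3.3) with the 3 groups and a dye intercept. Moderated two-sided tests had 2 to 3 residual and 6.64 prior degrees of freedom (prior SD 0.194), and the median SE was 0.11, with a precision limited by the number of arrays. Adjusted p-values are Benjamini-Hochberg values over all tested probes, with a threshold of 0.05. The probes are of chicken sequence and the RNA of turkey, so levels of different probes were not compared, and no sequence was examined. Gene symbols come from the array's descriptions and can be old, and 3914 of 5203 were found in the turkey RefSeq gene table. The script was tested on simulated data.

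Members and gene lists were chosen with earlier results of these data known. Named genes are the 12 highest and 12 lowest with an unadjusted p under 0.01 and all 3 estimates on the same side, up to 3 members of each list at an unadjusted p under 0.05, a set of 45 photoperiod and hormone genes (26 measured) and 2 probes with no symbol on each side, of which some genes are not reported here. GCG, PDE6H, GJA1, further list members without an SE, and RIGG03982 were added after their values were seen, and the galanin receptor, Mel-1c and transthyretin-like probes by description. Deviations of same-numbered SDPS and LDPS pools correlated at 0.65 and 0.62 for pools 1 and 2 and at 0.27 and 0.25 for pools 3 and 4. The former shared an array and the latter a dye, whose effect was not removed beforehand. These correlations therefore cannot show a pairing by replicate number, and the labels state none. A fit with the replicate block was run on separate channels as an alternative. Alternatives covered the dye term, direct arrays alone, centring, print-tip loess, scaling, an offset of 50, the spot filter, separate channels, the authors' table and leaving out each array. An estimate from arrays through LDPR alone was added after seeing the data.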

Additional observations from a re-analysis of the deposited data

Results flagged for a closer look

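Single pools stood apart from the other 3 of their group in 7 of 141 groups of 4 tested among the named genes and probes, by Dixon's test on levels, where chance gives about 1 in 20. A level carries the brightness of its spot, which these values do not separate from the RNA of the pool. AQP4 was at 8.57 in LDPS pool 2, against 8.00 to 8.02 in the other LDPS pools, and SLC1A3 at 8.76 in LDPS pool 3, against 9.45 to 9.58. In SDPS, EGR1 was at 8.54 in pool 3, against 8.75 to 8.78, and KCNN2 at 7.27 in pool 1, against 8.86 to 9.08. SDPS pool 2 had 3 such values: HIST1H1C, a linker histone gene, at 8.59 against 9.31 to 9.36, RELN at 9.29 against 8.23 to 8.38, and SMPD4 at 6.86 against 7.40 to 7.46.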

How the results depend on the processing

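Over 18 alternatives, the number of probes past the adjusted p was 1 (GAL) with scaling between arrays, with print-tip loess, with an offset of 50, and with the replicate block on separate channels, which against the fit over ratios changed no other call. It was 5 with separate channels and no block, and 5 with the authors' table, each time GAL, ESR2, RIGG19500, RIGG02307 and RIGG09090, and the block left GAL alone of these. RIGG09090, described as similar to T cell receptor gamma, was the only probe of these higher in LDPS. Its value was 0.62 with separate channels and 0.63 with the authors' table. Leaving out 1 array at a time gave 0 to 1 probes, the 1 being RIGG00475 (-1.43) without SDPS pool 3 and LDPR pool 1. The other alternatives gave 0. The adjusted p of GAL ran from 0.000405 to 1.00. Probes at an unadjusted p under 0.05 numbered 780, against 364 without a dye term, 448 on direct arrays alone, 1293 through LDPR alone, 1354 with scaling, and from 435 to 1674 leaving out 1 array at a time. The lowest count left out the array of LDPS pool 3, the highest that of LDPS and SDPS pool 2, and 491 probes were past this threshold without the array of SDPS pool 3. The cause was not tested.

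Of 1267 values of named genes under alternatives 1221 kept their direction, and 55 of 71 genes and probes had no reversal. Most of the 71 were chosen for a low p or for estimates on the same side in these same arrays. That choice favours a kept direction, so these counts do not measure stability. All genes and probes that reversed came from the set of photoperiod and hormone genes or were chosen by description. PRL (-0.01) turned positive on direct arrays (0.19), with print-tip loess (0.10), scaling (0.057), an offset (0.0097), all spots (0.01), separate channels (0.0053), the replicate block (0.080) and the authors' table (0.020). CLOCK (0.05) was at -0.059 on direct arrays and -0.010 with the replicate block, and DIO2 at 0.076 on direct arrays. Through LDPR alone, PER2 was at -0.17, NR1D2 at 0.11, VIPR1 at 0.24, TTR at 0.62, TRH at 0.24, POMC at 0.042, RIGG11655 at 0.071, RIGG10890 at 0.33, RIGG14884 at 0.36 and RIGG18366 at 0.44. RIGG14884 (-0.01) was at 0.011 with all spots, 0.021 with separate channels and 0.022 with the authors' table. Leaving out 1 array at a time, ASMT ran from -0.21 to 0.014, CLOCK from -0.021 to 0.14, NR1D2 from -0.071 to 0.049, VIP from -0.0052 to 0.28, VIPR1 from -0.46 to 0.10, PRL from -0.44 to 0.15, DIO2 from -0.22 to 0.024, TTR from -1.48 to 0.50, TRH from -0.12 to 0.18 and AVP from -0.26 to 0.12. The same ranges were -0.17 to 0.16 for RIGG10890, -0.16 to 0.18 for RIGG14884 and -0.32 to 0.13 for RIGG18366. The number of arrays limits the precision of these values.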

Other observations

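RIGG13952, described as similar to a MYC promoter-binding protein, had nearly the ratios of HBA1. Its estimates were 0.64 and 0.94 on the direct arrays and 0.40 on the path, beside 0.65, 0.93 and 0.39 for HBA1. This likeness was noticed after the values were seen and was not tested.

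STRA6, a retinol transporter, was at 0.30 (SE 0.11; 0.19 without pool 2 of both groups), the only 1 of 15 retinoid genes at an unadjusted p under 0.05, and the list median was close to 0. NEFM, a neurofilament chain, was at 0.23 (SE 0.10) with 0.00 and 0.55 on the direct arrays. HIST1H1C was at 0.30 (SE 0.11). A second transthyretin-like probe (RIGG18366) was at -0.17 (SE 0.18), with -0.73 and -0.23 on the direct arrays and 0.44 on the path, the same pattern of signs as TTR.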
